A study of Mus musculus with 9 samples.

Results

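Oxidative phosphorylation genes were followed in satellite cells, the muscle-resident stem cells, from mice deficient in Bmi1 (KO) and from wild type mice (WT). The set comprised every gene of the array whose name begins with Nduf, Sdh followed by a, b, c or d, Uqcr, Atp5, or Cox4 to Cox8, together with Cyc1 and Cycs. These prefixes gave 94 genes from 132 probes, of 28365 genes and features tested in all, and the probe with the highest mean signal stood for each gene. Of the 94 genes, 92 were well above background on all 9 arrays, and Cox7b2 and Cox8c were not well above background on any. By complex there were 41 genes of complex I, 6 of complex II, 9 of complex III, 20 of complex IV and 16 of complex V, assembly factors and isoforms included. Cycs is the electron carrier cytochrome c, and Cox4nb, which RefSeq names Emc8, shares the prefix without being a cytochrome oxidase subunit.

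Both groups were male FVB mice aged 2 months, and the KO mice were Bmi1-deficient. The part of Bmi1 that was removed, and whether the deficiency was limited to a cell type, are not given in the sources used here. Cells were sorted on CD34 and integrin alpha-7, with Sca1, CD11b, CD45 and CD31 used to exclude other lineages, and their RNA was amplified before hybridisation. The 6 KO arrays formed 3 pairs with a shared number in their descriptions, and each pair was averaged into 1 sample, which left 3 KO samples against 3 WT samples. The labels call the arrays biological replicates without naming animals, so the spread behind each p-value may be technical.

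The arrays of a KO pair correlated at 0.9949 to 0.9962 over probes, and the 33 other pairs of arrays at 0.9681 to 0.9823. For KO replicate 1, 1 label field gives the genotype as wild type while its title, source and description give KO, and it was kept as KO. Between 71.87% and 75.76% of spots were well above background, no spot was saturated, and all 10 satellite cell markers (Pax7 and Calcr among them) were well above background on all 9 arrays. The Bmi1 probe did not separate the groups (0.59 ± 0.12 in KO and 0.49 ± 0.11 in WT, SD, n = 3 each, limma adjusted p = 0.849), and since the deleted part is not known it is no check of the genotype. Cdkn2a, the classical target of Bmi1 repression, was 3.28 higher in KO on the log2 scale (limma adjusted p = 0.0159).

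Oxidative phosphorylation couples the oxidation of nutrients to the synthesis of ATP at the inner mitochondrial membrane. Complexes I and II feed electrons from NADH and succinate to ubiquinone, complex III passes them to cytochrome c, complex IV hands them to oxygen, and complex V uses the resulting proton gradient to make ATP. Most subunits are encoded in the nucleus, and the rest by mitochondrial DNA. Quiescent satellite cells are known for a low metabolic rate, and mitochondrial oxidation grows in importance as they activate and differentiate. Several subunits of complex IV exist as a ubiquitous form and as a second form used in muscle fibres, brown fat, lung, testis or hypoxic cells.

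The promoters of 3 genes of complex IV are printed as examples that hold motif matches, from the RefSeq table of GRCm38.p6. Each runs from 250 bases before to 50 after the gene start on the minus strand, at chr5:115348909-115349208 for Cox6a1, chr19:7217567-7217866 for Cox8a and chr7:140900397-140900696 for Cox8b. Capitals mark matches on either strand to the letters GCGCA and GCGC separated by any 1 base (the NRF1 motif), CCGGAAG (the ETS core), AAGATGGC (the YY1 motif), CAGCTG (an E-box of the kind bound by myogenic factors) or TATAAA (the TATA box).
Cox6a1: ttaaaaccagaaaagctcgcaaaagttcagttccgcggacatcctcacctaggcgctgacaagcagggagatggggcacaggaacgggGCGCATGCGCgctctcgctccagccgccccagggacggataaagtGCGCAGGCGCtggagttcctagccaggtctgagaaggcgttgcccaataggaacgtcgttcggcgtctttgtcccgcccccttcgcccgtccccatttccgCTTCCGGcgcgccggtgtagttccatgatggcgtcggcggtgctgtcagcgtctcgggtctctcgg
Cox8a: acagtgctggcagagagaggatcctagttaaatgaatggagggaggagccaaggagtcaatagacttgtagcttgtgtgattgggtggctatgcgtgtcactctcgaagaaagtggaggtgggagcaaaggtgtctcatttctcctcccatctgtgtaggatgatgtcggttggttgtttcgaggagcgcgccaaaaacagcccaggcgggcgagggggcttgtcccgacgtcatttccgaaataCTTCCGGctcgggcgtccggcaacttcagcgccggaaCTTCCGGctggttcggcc
Cox8b: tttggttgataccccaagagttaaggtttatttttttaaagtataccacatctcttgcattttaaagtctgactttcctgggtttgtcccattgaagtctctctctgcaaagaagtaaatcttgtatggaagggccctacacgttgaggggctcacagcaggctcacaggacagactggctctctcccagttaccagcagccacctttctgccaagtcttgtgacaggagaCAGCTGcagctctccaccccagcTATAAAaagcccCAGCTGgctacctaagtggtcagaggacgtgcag
The window of Cox6a1, a ubiquitous subunit, held 2 matches to the NRF1 letters and 1 to the ETS core. Cox8a, also ubiquitous, held 2 matches to the ETS core. Cox8b, the form of striated muscle and brown fat, held 2 E-boxes and 1 TATA box and none of the other motifs. These windows do not stand for all forms of either kind. The ubiquitous Cox5a, Cox5b, Cox7a2, Cox7b, Cox7c and Ndufa4 held none of the motifs, nor did the tissue forms Cox7a1 and Cox6b2.

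Promoter windows were found for 77 of the 94 genes (83 windows of 300 bases, some genes having more than 1 start), and were set against 32851 windows of all genes. The NRF1 letters occurred in 22.89% of the windows of oxidative phosphorylation genes and in 4.603% of all windows. The ETS core occurred in 22.89% against 8.858%, and the YY1 letters in 14.46% against 2.749%. Matches to the E-box (7.229% against 16.3%) and the TATA box (9.639% against 13.62%) were the less common ones in these genes. Of the 4 windows of tissue forms, none held the NRF1, ETS or YY1 letters, 1 held an E-box and 2 a TATA box. Genes with and without each motif had median KO minus WT differences between -0.14 and -0.07. The median was -0.07 for the 18 measured genes with the NRF1 letters and -0.13 for the 58 without them.

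No oxidative phosphorylation gene passed the test between KO and WT. Levels are given as log2 of the processed signal relative to the 75th percentile of each array, so 0 is the level of that percentile, and differences are KO minus WT on the same log2 scale. With limma, 0 of 92 genes had an adjusted p under 0.05, against 0.141% of all genes and features (0.130% higher and 0.0106% lower in KO), and the smallest adjusted p was 0.404, for Ndufv3. At an unadjusted p under 0.05, 3 of the 92 remained (11.0% of all genes): 2 lower in KO (4.24% of all) and 1 higher (6.78% of all). When all 9 arrays were entered as separate samples, which takes arrays of a pair as independent, the count past an adjusted p of 0.05 was again 0, and 9 had an unadjusted p under 0.05.

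The differences were small and mostly negative: 76 of 92 genes were lower in KO (82.6%, against 52.8% of all genes) and 16 were higher (47.2% of all genes), with a median of -0.11, against -0.017 over all genes. The median was negative under each scaling tried, but its size varied. It was -0.20 with median centring (-0.099 over all genes), and -0.069 with quantile normalization (68 of 92 lower, -0.023 over all genes). In the authors' deposited values it was -0.062 (66 lower, -0.016 over all genes). With slide as a block it was -0.087 (71 of 92 lower). That slide term rested on the WT samples alone, because each KO sample averaged 1 array of each slide. The median of the 92 genes differed between slides. It was -0.19 within slide 1, where 82 of 92 were lower in KO, and 0.032 within slide 2, where 35 were. Slide 1 held WT samples 1 and 3 and 1 array of each KO sample, and slide 2 held WT sample 2 and the other array of each KO sample. The 3 KO samples did not overlap the 3 WT samples in 11 genes lower in KO, or 12.0% of the 92, and in 0 genes higher in KO. Over all genes the groups were apart in 16.7%, with 8.12% lower and 8.61% higher in KO, so the total share was below that of all genes and the lower share above it. The 95% confidence interval of the difference lay within 1 log2 unit of 0 for 89 of the 92 genes and within 0.5 for 55 (59.8%, against 29.0% of all genes).

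**Figure D1:**
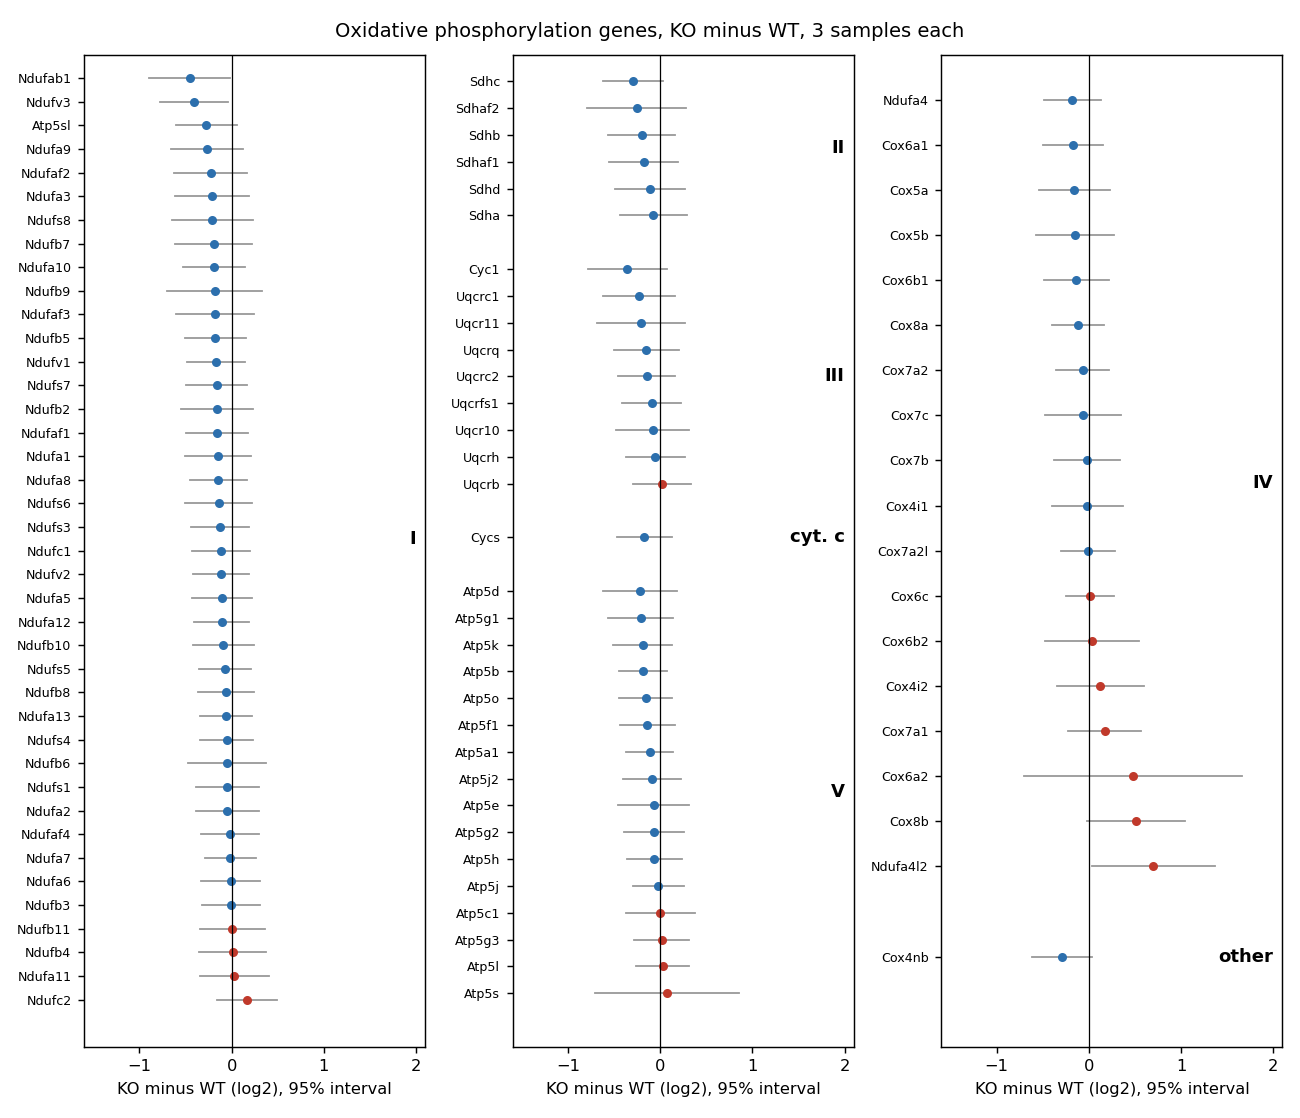
KO minus WT differences of 91 of the 92 measured genes (x axis, log2) with their 95% confidence intervals from limma, ordered within each complex, 3 samples per group. Red points are above 0 and blue points below, and most points lie between -0.3 and 0.2. Above that range lie tissue forms of complex IV such as Ndufa4l2 at 0.70 and Cox8b at 0.51. Below it lie Ndufab1 at -0.46, Ndufv3 at -0.41 and Cyc1 at -0.36.

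WT sample 2 stood apart from the other WT samples over these genes. Set against the WT mean of each gene, the median over the 92 genes was -0.094, -0.042 and -0.17 in KO samples 1, 2 and 3, against 0.046, -0.16 and 0.10 in WT samples 1, 2 and 3. WT sample 2 was thus within the range of the KO samples, while WT samples 1 and 3 were above all of them. It was the lowest of the WT samples in 74 of 92 genes (80.4%, against 37.2% of all genes), and below the KO mean in 56. Conversely, WT samples 1 and 3 both exceeded every KO sample in 51 genes (55.4%, against 17.3% of all genes). Within a KO sample, the array on slide 2 differed from that on slide 1 by a median of -0.015 to -0.00076 over the same genes. Only 1 WT array lies on slide 2, so that slide and that sample cannot be told apart among WT.

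**Figure D2:**
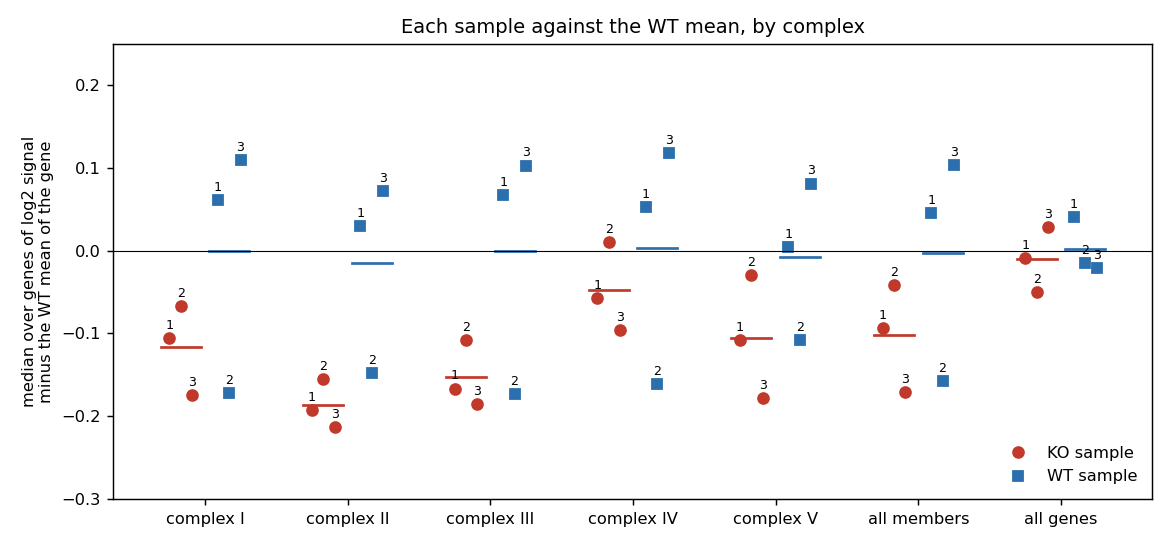
Median over genes of the log2 signal minus the WT mean of the gene (y axis), for each KO sample (red circles) and WT sample (blue squares) by complex, over all 92 genes and over all genes tested. Numbers name the samples and short lines give the mean of each group; over the 92 genes WT sample 2 sits at -0.16, among the KO samples at -0.17 to -0.042.

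Complex I, NADH dehydrogenase, had 37 of 41 genes lower in KO and a median of -0.13, with -0.19 within slide 1 and 0.021 within slide 2. All 7 core subunits, which carry the flavin and iron-sulfur clusters, were lower, with a median of -0.14. Among them Ndufv1, which binds NADH, had 3.55, 3.60 and 3.51 in KO samples 1, 2 and 3, against 3.85, 3.55 and 3.77 in WT samples 1, 2 and 3. WT sample 2 fell among the KO values, and the difference was -0.17 ± 0.13 (SE, limma adjusted p = 0.721). Ndufs1, the largest iron-sulfur subunit, averaged 2.76 ± 0.09 in KO and 2.81 ± 0.18 in WT (SD, n = 3 each), within the spread of either group.

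Of the 29 accessory subunits of complex I, 25 were lower in KO, with a median of -0.11. Ndufv3, an accessory subunit of the NADH-oxidising module, had 1.88, 1.98 and 1.95 in KO samples, against 2.49, 2.09 and 2.48 in WT samples 1, 2 and 3. Every WT value exceeded every KO value, WT sample 2 by the least. The difference was -0.41 ± 0.15 (SE, unadjusted p = 0.035, limma adjusted p = 0.404), and it was -0.54 within slide 1 and -0.15 within slide 2. Ndufab1, the mitochondrial acyl carrier protein, had 0.30, 0.17 and 0.14 in KO samples, against 0.47, 0.50 and 1.01 in WT samples 1, 2 and 3. The groups did not overlap here either, and WT sample 3 was the farthest from KO. Its difference of -0.46 ± 0.18 (SE, limma adjusted p = 0.435) was the most negative of the 92, and was -0.52 within slide 1 and -0.32 within slide 2.

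All 5 assembly factors of complex I in the set were lower in KO, with a median of -0.18. Atp5sl, which RefSeq names Dmac2 and which acts in the assembly of the distal membrane arm, had 0.14, 0.45 and 0.32 in KO samples, against 0.52, 0.51 and 0.70 in WT samples 1, 2 and 3. The groups did not overlap, and the difference of -0.27 ± 0.14 (SE) had a limma adjusted p of 0.544. The other 4, Ndufaf1 to Ndufaf4, had differences between -0.23 and -0.016. At the other end of complex I, Ndufc2, an accessory subunit, was the most positive at 0.17 ± 0.13 (SE, limma adjusted p = 0.745).

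Complex II, succinate dehydrogenase, had all 6 genes lower in KO with a median of -0.19, and kept a negative median within both slides (-0.22 in slide 1 and -0.074 in slide 2). Sdhc, which anchors the enzyme in the membrane, had 1.41, 1.32 and 1.56 in KO samples, against 1.82, 1.56 and 1.79 in WT samples 1, 2 and 3. KO sample 3 and WT sample 2 nearly met, and the difference was -0.30 ± 0.13 (SE, limma adjusted p = 0.503). A dimmer Sdhc probe gave a smaller difference of -0.15, and its groups overlapped (1.21 in KO sample 2 and 1.20 in WT sample 3). Sdhb, the iron-sulfur subunit, averaged 2.87 ± 0.13 in KO and 3.07 ± 0.19 in WT (SD, n = 3 each). Sdha, the flavoprotein that oxidises succinate, averaged 1.87 ± 0.16 in KO and 1.95 ± 0.16 in WT (SD, n = 3 each), and in it WT sample 2 was the highest of the 6 samples at 2.13. The assembly factor Sdhaf2, which helps attach the flavin to Sdha, differed by -0.26 ± 0.22 (SE, limma adjusted p = 0.755). 

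Complex III, cytochrome bc1, had 8 of 9 genes lower in KO and a median of -0.15, with -0.23 within slide 1 and 0.065 within slide 2. Cyc1, the cytochrome c1 haem protein, had 2.27, 2.26 and 2.26 in KO samples, against 2.63, 2.31 and 2.92 in WT samples 1, 2 and 3. The KO samples lay close together, and the WT samples spread over more than the difference of -0.36 ± 0.18 (SE, limma adjusted p = 0.544). Uqcrc1 and Uqcrc2, the core proteins, differed by -0.23 ± 0.16 and -0.15 ± 0.13 (SE). Uqcrfs1, the Rieske iron-sulfur protein, averaged 2.71 ± 0.14 in KO and 2.80 ± 0.10 in WT (SD, n = 3 each), within the spread of the groups. Uqcrb, a small subunit near the quinone site, was the exception in direction at 0.020 ± 0.13 (SE).

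Cycs, cytochrome c itself, had 3.57, 3.45 and 3.42 in KO samples, against 3.62, 3.56 and 3.77 in WT samples 1, 2 and 3, and KO sample 1 fell above WT sample 2. The difference was -0.17 ± 0.12 (SE, limma adjusted p = 0.692). Its 2 other probes gave -0.26 and 0.22, the second from a dim probe, so the probes disagreed in direction.

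Complex IV, cytochrome c oxidase, divided by the kind of subunit. The 11 ubiquitous subunits included 10 lower in KO and had a median of -0.11, while all 6 measured tissue forms were higher in KO, with a median of 0.33. The tissue forms were higher within both slides, with medians of 0.19 in slide 1 and 0.55 in slide 2, and the ubiquitous subunits had -0.17 in slide 1 and 0.12 in slide 2. Over all 18 measured genes of the complex the median was -0.020, and it was positive within slide 2 (0.14), with slide as a block (0.0097), without WT replicate 3 (0.028), under quantile normalization (0.021) and in the authors' deposited values (0.030). None of the 18 passed the test, and the smallest adjusted p was 0.433, for Ndufa4l2.

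Among the ubiquitous subunits, Cox4i1, a regulatory subunit, had 5.71, 5.78 and 5.86 in KO samples, against 5.92, 5.52 and 5.96 in WT samples 1, 2 and 3. WT sample 2 was the lowest of all 6 samples, and the difference of -0.019 ± 0.16 (SE, limma adjusted p = 0.981) turned positive under several ways of processing. Cox5a averaged 3.87 ± 0.02 in KO and 4.03 ± 0.25 in WT (SD, n = 3 each), with WT sample 2 again the lowest. Cox6a1 differed by -0.18 ± 0.13, Cox7a2 by -0.067 ± 0.12 and Cox8a by -0.11 ± 0.12 (SE). Cox8a, a small subunit present in most tissues, had 5.61, 5.62 and 5.44 in KO samples, against 5.69, 5.62 and 5.70 in WT samples 1, 2 and 3, where WT sample 2 exceeded KO sample 2 by under 0.01. Ndufa4, named for complex I but now placed in complex IV, averaged 2.68 ± 0.10 in KO and 2.85 ± 0.11 in WT (SD, n = 3 each), and its groups did not overlap.

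Among the tissue forms, Ndufa4l2, a paralog of Ndufa4 known as a target of hypoxia-inducible factor and abundant in pericytes, had -2.81, -3.37 and -2.45 in KO samples, against -3.82, -3.62 and -3.28 in WT samples 1, 2 and 3. KO sample 2 fell below WT sample 3, so the groups overlapped. Its difference of 0.70 ± 0.27 (SE, 95% interval 0.031 to 1.36, unadjusted p = 0.043, limma adjusted p = 0.433) was the most positive of the 92. Cox8b, the form of striated muscle and brown fat, had -0.41, -0.65 and -0.02 in KO samples, against -0.62, -1.14 and -0.86 in WT samples 1, 2 and 3. Only KO sample 2 fell below a WT sample, by a small margin to WT sample 1, and the difference was 0.51 ± 0.22 (SE, limma adjusted p = 0.469).

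Cox6a2, the striated muscle form of subunit 6a, had -1.76, -3.32 and -3.09 in KO samples, against -2.83, -3.82 and -2.96 in WT samples 1, 2 and 3. KO sample 1 alone was high, and without it the difference of 0.48 ± 0.48 (SE) became -0.0036. Cox7a1, the form of muscle and brown fat, averaged 1.13 ± 0.15 in KO and 0.95 ± 0.22 in WT (SD, n = 3 each), within the spread of the groups. Cox4i2, found in lung and hypoxic cells, averaged -3.94 ± 0.32 in KO and -4.06 ± 0.13 in WT (SD, n = 3 each). Cox6b2, the testis form, differed by 0.035 ± 0.21 (SE, limma adjusted p = 0.974).

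The balance of each tissue form against its ubiquitous partner was compared within samples, as the difference of their log2 signals, which cancels a shift common to a sample. The probes of a pair shared runs of at most 4 to 7 bases. Of the 6 pairs, chosen after their values were seen, none could pass an exact two-sided permutation test over 3 against 3 samples, whose smallest p is 0.1. The log2 ratio of Ndufa4l2 to Ndufa4 was -5.57, -6.07 and -5.01 in KO samples, against -6.60, -6.42 and -6.27 in WT samples 1, 2 and 3, with every KO sample above every WT sample. It was higher in KO by 0.88 (exact permutation p = 0.1, 0.3 after Benjamini-Hochberg adjustment over the 6 pairs). The ratio of Cox8b to Cox8a was -6.03, -6.27 and -5.47 in KO samples, against -6.31, -6.76 and -6.57 in WT samples 1, 2 and 3, also without overlap. It was higher in KO by 0.63 (exact permutation p = 0.1, adjusted 0.3). For Cox6a2 over Cox6a1 the difference was 0.66, for Cox7a1 over Cox7a2 0.24, for Cox6b2 over Cox6b1 0.17 and for Cox4i2 over Cox4i1 0.14, with overlapping groups in all 4 (exact permutation p from 0.3 to 0.8). Signals of different probes are not on a common scale, so only the difference between groups has a meaning here.

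**Figure D3:**
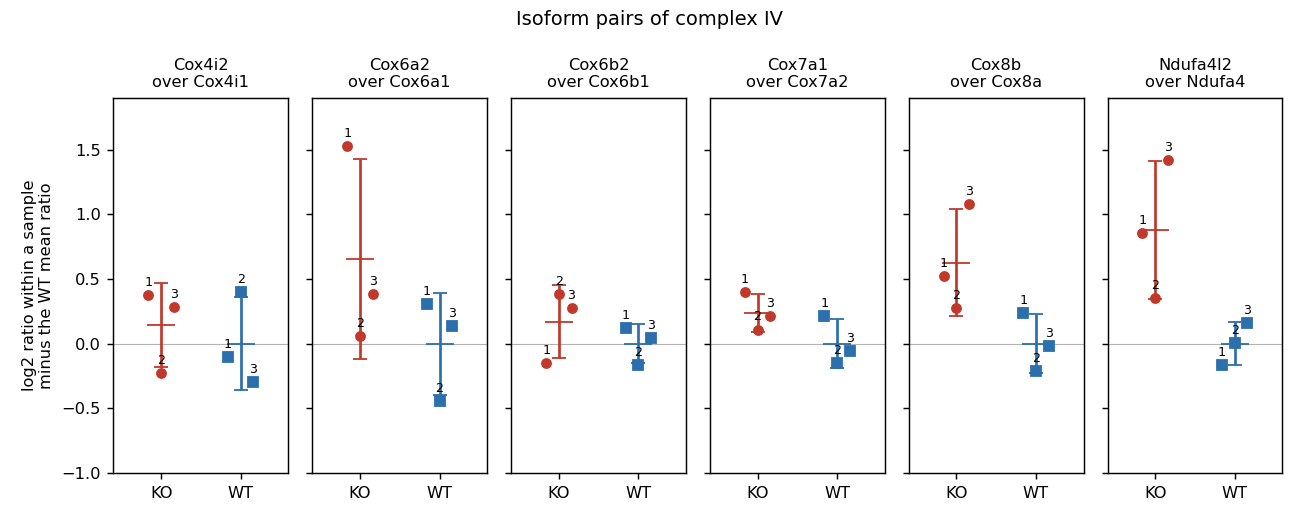
Log2 ratio of a tissue form to its ubiquitous partner within each sample, minus the WT mean ratio (y axis), for KO (red circles) and WT (blue squares), numbered by sample, with bars for the mean and SD of 3 samples. KO samples lie above all WT samples for Ndufa4l2 and Cox8b, and KO sample 1 stands out for Cox6a2.

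Markers of other cells were read beside these forms, and their part in the result was not tested. Of 20 muscle fibre markers 19 were measured, 11 higher and 8 lower in KO with a median of 0.19. The log2 of their summed level ranged from 5.66 to 6.03 in KO and from 5.53 to 5.87 in WT. Atp2a1 gave the largest part of that sum, at 4.68, 4.92 and 5.22 in KO samples and 5.19, 4.89 and 5.18 in WT samples. KO sample 1 had a fibre marker median 0.83 above the WT mean, led by Tnnt3, Tnni2, Tnnc2, Tcap and Myh2, and it is the sample in which Cox6a2 was high. Other fibre markers went the other way. KO sample 1 was the lowest of the 6 samples for Myh4, Pvalb, Actn3, Casq1, Atp2a1 and Ryr1. Ckm, the muscle creatine kinase, was well above background on 5 of 9 arrays. Of 6 brown fat and fat cell markers 5 were higher in KO. Their summed level was 1.20 to 3.75 in KO and 0.20 to 2.05 in WT. Fabp4 gave most of that sum, at 3.69, 0.84 and 3.20 in KO samples, against -0.26, 1.81 and -0.72 in WT samples. Fabp4 was thus highest in KO sample 1, whereas Cox8b was highest in KO sample 3. KO sample 3 had Adipoq at -0.01 against -4.30 to -4.08 in the other 5 samples. Cidea and Elovl3, markers of brown fat itself, were at -2.34 and -2.26 in that sample, against -2.81 to -2.45 and -2.26 to -1.79 in the other 5. All 7 mural markers were higher in KO with a median of 0.63, their summed level being 5.93 to 6.01 in KO and 5.67 to 5.84 in WT, and Pdgfrb, the pericyte receptor, passed the test (limma adjusted p = 0.0373).

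Other lists of non-satellite markers also differed in balance. All 9 endothelial markers were higher in KO (median 0.57, summed level 2.42 to 2.98 in KO and 2.04 to 2.42 in WT). Mesenchymal markers were higher in 7 of 8 (median 1.18, summed level 6.80 to 6.95 in KO and 6.47 to 6.61 in WT) and glial markers in 6 of 6 (median 0.89, summed level 4.82 to 5.08 in KO and 4.17 to 4.45 in WT), while myeloid markers were split with 3 of 8 measured higher (summed level 6.91 to 7.06 in KO and 6.95 to 7.16 in WT). Most of the mesenchymal sum came from Col3a1, at 6.14 to 6.34 over the samples, with a difference of 0.026. Nearly all of the myeloid sum came from Itgam, at 6.85 to 7.11 over the samples, while Ptprc was at -4.15 to -3.18. Tie1, Pdgfra, Cd14 and Adgre1 were well above background on only 5, 6, 6 and 3 of the 9 arrays. In sorted bulk samples, a change in the share of a cell type and a change in RNA per cell cannot be told apart.

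Complex V, ATP synthase, had 12 of 16 genes lower in KO and a median of -0.079, with -0.16 within slide 1 and 0.046 within slide 2. Atp5b, the catalytic beta subunit of the F1 head, had 4.09, 4.17 and 4.11 in KO samples, against 4.28, 4.35 and 4.29 in WT samples 1, 2 and 3. The groups did not overlap and, unlike in most of these genes, WT sample 2 was the highest WT sample. The difference was -0.18 ± 0.11 (SE, limma adjusted p = 0.620), with -0.23 within slide 1 and -0.16 within slide 2. Atp5a1, the alpha subunit, had 4.48, 4.54 and 4.53 in KO samples, against 4.63, 4.65 and 4.62 in WT samples 1, 2 and 3. Its groups were likewise apart by a small margin, with a difference of -0.12 ± 0.10 (SE, limma adjusted p = 0.767).

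Atp5c1, the gamma subunit that turns within the head, averaged 2.05 ± 0.16 in KO and 2.04 ± 0.17 in WT (SD, n = 3 each) by its brighter probe. A second probe had 1.12, 1.08 and 0.70 in KO samples, against 1.53, 1.40 and 1.69 in WT samples 1, 2 and 3, a difference of -0.57, so the size of the difference depends on the probe. In the membrane part, Atp5g1, a gene for the ring-forming c subunit, averaged 3.35 ± 0.08 in KO and 3.56 ± 0.20 in WT (SD, n = 3 each), and WT sample 2 lay below 2 of the KO samples. Atp5k, the e subunit, differed by -0.19 ± 0.13 (SE, limma adjusted p = 0.686) with the groups apart by under 0.01. The array design places this probe on chromosome Y, so a near-identical copy may share its signal. A dimmer Atp5k probe, placed on chromosome 5, had 1.75, 1.89 and 1.59 in KO samples, against 2.01, 1.95 and 2.02 in WT samples 1, 2 and 3. Its difference was -0.25, and its groups did not overlap.

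Where a gene had more than 1 probe, the differences of its probes were compared. Of 27 such genes, 25 had probes within 0.25 of each other, with a median spread of 0.064, and in 20 all probes gave 1 direction. Cycs and Atp5c1 exceeded the limit of 0.25. That limit is wide beside the median difference of -0.11 over the 92 genes, and Ndufaf4, at -0.016 and -0.25, fell within it.

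The subunits encoded by mitochondrial DNA were about evenly split. Of 13 such genes 11 were measured, 6 higher and 5 lower in KO, with a median of 0.023 and none past the threshold (smallest limma adjusted p = 0.860). Their median was -0.074 within slide 1 and 0.093 within slide 2. CYTB, the cytochrome b of complex III, differed by -0.075 and ND4L, a membrane subunit of complex I, by -0.085. The array design places 5 of the 11 probes, those of ND3, ND4L, COX2, COX3 and ATP8, on nuclear chromosome 1. A nuclear copy of mitochondrial DNA may therefore share their signal.

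Other mitochondrial lists, written with earlier results of these data known, mostly had more genes lower than higher in KO, without a gene past the threshold in any. Tricarboxylic acid cycle genes were lower in KO in 16 of 18, with a median of -0.16 and 7 genes with groups apart, all lower (38.9% of the list, against 8.12% lower and 16.7% either way over all genes). Suclg2, of succinyl-CoA ligase, had -0.63, -0.72 and -1.18 in KO samples, against -0.34, -0.38 and -0.17 in WT samples 1, 2 and 3, a difference of -0.55 ± 0.18 (SE, limma adjusted p = 0.350). Idh3b, of isocitrate dehydrogenase, differed by -0.31 ± 0.14 (SE, limma adjusted p = 0.494), with groups that overlapped. Mitochondrial ribosomal proteins were lower in 69 of 78 with a median of -0.15 and 18 apart, all lower (23.1% of the list, against the same 8.12% over all genes). Among these were Mrpl19 at -0.44 ± 0.14 and Mrpl36 at -0.35 ± 0.12 (SE). Against the WT mean, WT sample 2 had a median of -0.13 over the ribosomal proteins, among the KO samples at -0.17, -0.11 and -0.21. For both lists the median was negative within each slide, at -0.18 in slide 1 and -0.080 in slide 2 for the cycle and -0.20 and -0.062 for the ribosomal proteins.

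Assembly factors of complexes III to V were lower in 21 of 26 measured, with a median of -0.17, but the median was 0.023 within slide 2, where 12 were lower, and -0.24 within slide 1. WT sample 2, at a median of -0.17 against the WT mean, lay below the KO samples at -0.15, -0.10 and -0.13. Tmem70, which assembles ATP synthase, had -1.48, -1.96 and -1.49 in KO samples, against -0.91, -1.21 and -1.04 in WT samples 1, 2 and 3, without overlap, at a difference of -0.59 ± 0.18 (SE, limma adjusted p = 0.307). Bcs1l, which inserts the Rieske protein into complex III, differed by -0.42 ± 0.14 (SE, limma adjusted p = 0.340). Genes of ATP export and coupling were lower in 11 of 14 (median -0.17 within slide 1 and -0.032 within slide 2), with the uncoupling proteins Ucp2 at -0.47 ± 0.13 (SE, limma adjusted p = 0.271) and Ucp3 at -0.43 ± 0.13 (SE, limma adjusted p = 0.306) having the smallest p. Ucp2 had 4.73, 4.97 and 4.70 in KO samples, against 5.17, 5.26 and 5.37 in WT samples 1, 2 and 3, and its groups did not overlap.

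Biogenesis regulators were lower in 14 of 18 measured with a median of -0.12, and -0.092 and -0.093 within slides 1 and 2. Pprc1 and Gabpb1, a coactivator and a subunit of the ETS factor GABP, were on the other side at 0.26 ± 0.15 each (SE, limma adjusted p of 0.605 and 0.627). Ppargc1a was the most positive of the list at 0.53 ± 0.32 (SE, limma adjusted p = 0.632), with WT sample 2 among the KO samples. Other routes of electron entry were mixed (median -0.086 within slide 1 and -0.033 within slide 2), with 6 of 15 higher, among them Prodh, which oxidises proline, at 0.51 ± 0.20 (SE, limma adjusted p = 0.432) and Sqor, which oxidises sulfide, at 0.35 ± 0.16 (SE, limma adjusted p = 0.505). Subunits and assembly factors that carry other names in the files, 10 in all, had a median of -0.028 (-0.12 within slide 1 and 0.11 within slide 2), with Ndufaf6 at -0.26 ± 0.15 and Sdhaf4 at 0.17 ± 0.16 (SE).

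**Figure D4:**
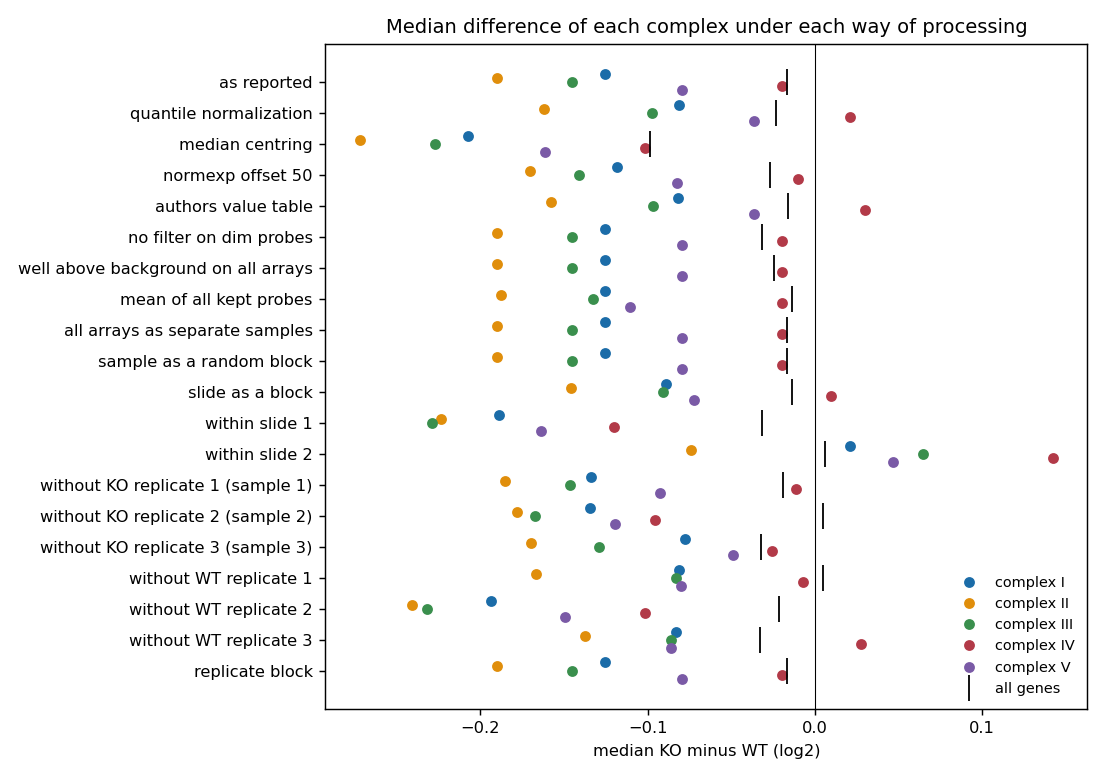
Median KO minus WT difference of complexes I to V (coloured points, x axis, log2) and of all genes (black ticks) under each way of processing (y axis). Complexes I, II, III and V stay below 0 except within slide 2, where complex II alone is below 0 at -0.074 and complex IV is at 0.14.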

How the data were processed

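Expression was measured on 9 one-colour Agilent arrays (3 WT, 6 KO) of 59305 spots that are not controls, holding 55681 probes. Each array file holds spot intensity on a linear scale, deposited as scanner output; per the file headers, Agilent Feature Extraction 10.7.3.1 corrected the background of the processed signal. The authors also deposited a table of log2 values, whose columns matched a normexp correction (offset 50) with quantile normalization, at a lowest r of 0.999974. No source used here gives its method, and it was an alternative only.

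Here log2 of the processed signal minus each array's 75th percentile was taken. Spots marked as outliers, 93 to 148 on an array, were dropped, repeat spots averaged and 35 empty values filled with the probe mean. The fit used the 42983 probes that 3 or more of the 9 arrays measured well above background. The number of arrays limits the precision. Gene names were updated through RefSeq by accession (26300 probes), symbol (2044) or synonym (355), and 26982 probes kept the file's name. Probe coordinates are in mm9.

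The 3 KO samples, each the mean of 2 arrays, and the 3 WT samples entered limma 3.58.1 (lmFit, then eBayes; R 4.3.3, statmod 1.5.0, and the package data.table in version 1.17.8), with p adjusted by Benjamini and Hochberg over 28365 features at 0.05, and the fit was tested on simulated data. Files were read and figures drawn in Python 3.11.15 (pandas 2.3.3, matplotlib 3.10.9). The members, lists, roles and tests were chosen with earlier results of these data known. The text names members past the threshold, the 3 of smallest p in each complex, a set of members by role and the 2 genes of smallest p in each other mitochondrial list, and other genes after their values were seen; 1 member of the role set is not reported here on its own. KO and WT samples share numbers in the labels, but those with the same number did not deviate together (r of -0.0428, 0.0253 and 0.0077), so the numbers were not taken as pairs. Alternatives changed the normalization, background, filter, probe choice, treatment of KO arrays, slide and the samples included. With slide as a block, the slide term came from the WT samples alone, since every KO sample averaged arrays of both slides.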

Additional observations from a re-analysis of the deposited data

How the results depend on the processing

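No oxidative phosphorylation gene was called with limma under any of the tested alternatives, and 1 to 10 had an unadjusted p under 0.05. Over all genes, 40 were called in the reported analysis, and the count was 18 with median centring, 296 with normexp and an offset of 50, 248 in the authors' deposited values, 13 without the filter, 104 with probes well above background on all arrays, 1204 with all arrays as separate samples (74.3% of them higher in KO, against 92.5% as reported), 549 with a random block for the sample, 4 when slide was a block, 2 within slide 1 and 0 to 9 when 1 sample was left out (5, 9 and 1 without KO samples 1, 2 and 3, and 0, 1 and 0 without WT samples 1, 2 and 3). With the replicate block, 0 genes passed limma's adjusted threshold and 2951 had an unadjusted p under 0.05. Leaving out a KO sample removed both of its arrays. Within slide 2, with 1 WT array and no test, the medians were 0.032 over all members, 0.021 for complex I, -0.074 for complex II, 0.065 for complex III, 0.14 for complex IV and 0.046 for complex V; the cause was not tested. Of 570 values of 30 named members under 19 alternatives, 27 changed sign, in 11 members. Cox4i1 was 0.035 with quantile normalization, 0.018 in the authors' deposited values, 0.051 when slide was a block and 0.22 within slide 2, and ranged from -0.16 to 0.061 when 1 sample was left out (0.020 without KO replicate 1). Atp5c1 was -0.080 with median centring, -0.29 with the mean of all kept probes, -0.040 when slide was a block, -0.068 within slide 1, -0.011 within slide 2 and -0.085 to 0.086 when 1 sample was left out (-0.015 and -0.070 without KO replicates 1 and 2). Cox7a2 was 0.0035 in the authors' deposited values and 0.070 within slide 2. Ndufs1 was 0.028 within slide 1 and -0.15 to 0.021 when 1 sample was left out, and Sdha -0.14 to 0.017 (0.017 without either KO replicate 3 or WT replicate 2). Cox6a2 was -0.0036 without KO replicate 1 and at most 0.78 without another. Within slide 2, Uqcrc2 was 0.0088, Uqcrfs1 0.099, Cycs 0.011, Cox5a 0.12 and Atp5g1 0.0046. Among the members, Cox6a2, one of the dimmer ones, had the widest interval, from -0.70 to 1.66.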
